A study of Mus musculus with 4 samples.

Results

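The immunoglobulin light chain variable segments are the germline coding pieces from which a B cell builds the antigen-binding part of its kappa or lambda light chain. They were taken as the genes whose symbol starts with Igkv or Iglv, which gave 163 of the 32285 genes counted, 160 of them kappa and 3 lambda. Their unique molecular identifiers (UMIs, each standing for 1 captured mRNA molecule) were read in B cells, defined as cells with a UMI of Cd79a or Ms4a1 and none of Cd3e. There were 924 and 349 such cells in the tamoxifen mice and 708 and 176 in the placebo mice, 2157 of 28477 cells kept in all.

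The 4 mice were females on the FVB/NJ background and carried the MMTV-PyMT transgene, in which a mammary tumour virus promoter drives the polyoma middle T oncogene in mammary epithelium. The 2 tamoxifen mice received at 8 weeks of age a pellet of 5 mg tamoxifen with release over 60 days, and the 2 placebo mice a placebo pellet. Perfused whole lungs were dissociated 5 weeks later, at 13 weeks of age, with 1 single-cell 5' expression library (10x Genomics) made from the lung of each mouse. Both groups carry the transgene, and mice without it were not analysed here. The mouse is the replicate, so with 2 mice in each group an exact permutation test of a single value cannot give a p under 0.33.

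A kappa or lambda chain arises when a developing B cell joins 1 of many V segments to a J segment, and the joined exon is spliced to a constant exon. Each B cell normally keeps 1 productive light chain, so the V segment in its mRNA is a stable mark of the cell and of its descendants. In the mouse most light chains are kappa, and antibody-secreting cells hold far more light chain mRNA than resting B cells do. A 5' library reads the start of the transcript, where the V segment lies.

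The segment singled out by earlier results of these data was Igkv12-98 (ENSMUSG00000076526), whose V exon is shown because the results turn on whether its reads can be told from those of related segments. It lies on the plus strand of chromosome 6 at chr6:68570938-68571235 (GRCm38), and its closest relatives by base identity are Igkv12-44 and Igkv12-41, which are tied. Igkv12-44 is printed, on the minus strand at chr6:69814631-69814928. Sequences are from the GENCODE M21 transcripts, 5′ to 3′, and capitals in Igkv12-44 mark the 53 of 298 positions at which it differs from Igkv12-98. The identity of 82.2% is the same for Igkv12-41.
Igkv12-98: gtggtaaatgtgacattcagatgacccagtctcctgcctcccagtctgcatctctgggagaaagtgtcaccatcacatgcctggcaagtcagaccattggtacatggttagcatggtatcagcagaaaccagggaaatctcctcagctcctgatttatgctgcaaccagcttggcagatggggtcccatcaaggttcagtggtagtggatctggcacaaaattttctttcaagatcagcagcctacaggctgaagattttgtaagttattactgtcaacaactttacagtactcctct
Igkv12-44: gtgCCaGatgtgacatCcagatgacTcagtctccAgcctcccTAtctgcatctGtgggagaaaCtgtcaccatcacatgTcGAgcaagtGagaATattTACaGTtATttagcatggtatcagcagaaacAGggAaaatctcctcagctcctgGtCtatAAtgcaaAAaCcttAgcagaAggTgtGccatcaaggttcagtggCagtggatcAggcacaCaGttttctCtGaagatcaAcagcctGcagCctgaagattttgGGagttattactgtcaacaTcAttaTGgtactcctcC

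The lambda pair Iglv1 and Iglv2 is shown as the opposite case, since their exons are 96.4% identical and 20 of the cells described further on had Iglv1 among their 2 leading segments. The last 150 bases are printed, at chr16:19085017-19085166 for Iglv1 and chr16:19260401-19260550 for Iglv2, both on the minus strand of GRCm38. Capitals in Iglv2 mark the 5 bases that differ from Iglv1 within this stretch.
Iglv1: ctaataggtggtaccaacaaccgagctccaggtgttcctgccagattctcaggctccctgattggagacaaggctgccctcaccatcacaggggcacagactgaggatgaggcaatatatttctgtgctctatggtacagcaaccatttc
Iglv2: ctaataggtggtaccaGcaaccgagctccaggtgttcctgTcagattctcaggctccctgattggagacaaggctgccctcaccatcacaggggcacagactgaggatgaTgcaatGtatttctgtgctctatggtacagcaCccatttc

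The last 48 bases of a V exon hold the codons for the conserved tyrosine and cysteine before the third complementarity-determining region and the germline start of that region. They are shown for the 5 most used segments, for Igkv14-126, which had a preferred heavy chain partner, and for Igkv12-98. Capitals mark the motif TANTNNTGN, searched on the coding strand only. It was present in this window in 99 of 103 functional segments (96.1%) and in 37 of 60 pseudogenes (61.7%).
Igkv10-96: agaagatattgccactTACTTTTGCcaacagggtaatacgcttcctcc
Igkv1-117: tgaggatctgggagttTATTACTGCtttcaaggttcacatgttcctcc
Igkv1-110: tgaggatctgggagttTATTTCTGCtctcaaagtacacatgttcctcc
Igkv6-32: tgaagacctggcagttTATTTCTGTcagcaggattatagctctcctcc
Igkv19-93: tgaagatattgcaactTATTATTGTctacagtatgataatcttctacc
Igkv14-126: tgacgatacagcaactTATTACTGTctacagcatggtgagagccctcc
Igkv12-98: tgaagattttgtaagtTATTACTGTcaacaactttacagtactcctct
Near identity between segments is common. Of the 103 functional segments, 38 have another segment at 95% identity or more, among them Igkv1-110 and Igkv1-117, which are 96.8% identical to each other. Reads that fit 2 such segments equally could be split or lost in the counting, so counts of these segments are uncertain. The reference build is of another inbred strain than FVB/NJ, and the part of strain differences in the counts was not tested.

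The cells were checked on B cell genes that the rule did not use. Cd79b, the partner of Cd79a in the B cell receptor, was detected in 90.6% and 90.3% of them in the tamoxifen mice and in 87.3% and 80.7% in the placebo mice. Ebf1, a transcription factor of the B lineage, was detected in 90.9% and 84.2% in the tamoxifen mice and in 84.3% and 80.7% in the placebo mice. Of T cell genes other than Cd3e, which the rule sets to 0, Trac was detected in 0.108% and 0.287% in the tamoxifen mice and in 0% of both placebo mice. Placebo 2, the library with the fewest B cells, stood apart in neutrophil genes, whose 5 markers summed to 2798 and 3919 CPM (UMI counts scaled to a common total per mouse) in the tamoxifen mice and to 3061 and 18853 CPM in the placebo mice. Placebo 1 was highest in the 3 alveolar type 2 genes, at 288 and 640 CPM in the tamoxifen mice and 2341 and 12.3 CPM in the placebo mice. It was also highest in the 4 erythroid genes, at 4294 and 13952 CPM in the tamoxifen mice and 20318 and 4418 CPM in the placebo mice. The part of these differences in the results was not tested. The median B cell held 3352.5 and 3769 UMIs in the tamoxifen mice and 2508.5 and 3869 UMIs in the placebo mice. Kept cells of any 2 libraries shared between 61 and 74 barcodes, at most 1.08% of the smaller library. The libraries held between 32646505 and 37285982 UMIs in 7272 to 10168 barcodes.

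Light chain V segments were found in nearly all of these cells. At least 1 UMI was present in 96.1% and 95.4% of B cells in the tamoxifen mice and in 91.9% and 86.4% in the placebo mice. After each cell was thinned to 1000 UMIs the shares were 94.8% and 91.2% in the tamoxifen mice and 90.6% and 88.5% in the placebo mice, so the order of the groups was the same at equal depth. Among T cells, which do not rearrange these loci, the shares with a UMI were 1.28% and 0.263% in the tamoxifen mice and 1.07% and 0.439% in the placebo mice, at median depths of 3207, 3105, 2752 and 3970 UMIs. T cells were read only where they had no UMI of Cd79a or Ms4a1, so droplets with such B cell RNA were left out. In the T cells so chosen, the level was far under that of the B cells. The part of free RNA in the droplets left out was not tested. In bulk sums, fewer cells of a type and less RNA per cell cannot be told apart, which is why cells were also counted.

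Of the 163 segments, 115 had at least 1 UMI in a B cell and 48 had none. The functional genes took nearly all of the signal, with 152224 UMIs over 100 detected segments. The 60 pseudogenes together had 201 UMIs, of which Igkv4-60 had 65, and none was the leading segment of an assigned cell. A cell was assigned to a segment when that segment had at least 3 UMIs and at least 70% of the cell's light chain V UMIs. This assigned 741 and 287 cells in the tamoxifen mice and 538 and 131 in the placebo mice, to 86 different segments.

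The kappa segments were used along the whole locus. The 160 Igkv genes span chr6:67555497-70704177 (GRCm38), and the 40 of them at the end far from the J segments, from Igkv2-137 to Igkv15-102, took 32.1% and 31.8% of the kappa-assigned cells in the tamoxifen mice and 32.5% and 28.7% in the placebo mice. The 40 nearest the J segments, from Igkv5-39 to Igkv3-1, took 29.4% and 30.0% in the tamoxifen mice and 31.6% and 31.8% in the placebo mice. Each set of 40 between them took between 17.3% and 20.9% in the 4 mice. The sets differ in functional segments, with 34 in the set nearest the J segments and 22 in each of the others. The shares are therefore not use per functional segment. Both transcriptional orientations were in use, with 752 assigned cells on the plus strand, whose segments join the J segments by deletion of the DNA between them, and 924 on the minus strand, whose segments join by inversion.

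Igkv10-96 and Igkv1-117 were among the most used segments in each mouse. Igkv10-96 was the segment most used in 3 of the 4 mice, in 6.88% and 4.88% of assigned cells in the tamoxifen mice and 7.25% and 7.63% in the placebo mice. Igkv1-117 led in tamoxifen 2, and its share was nearly equal in all mice, at 6.07% and 5.92% in the tamoxifen mice and 6.13% and 6.11% in the placebo mice. Igkv1-110 followed with 4.18% and 5.23% in the tamoxifen mice and 5.39% and 3.82% in the placebo mice. Both tamoxifen shares of Igkv10-96 and of Igkv1-117 lay under both placebo shares, by little for Igkv1-117, while the groups overlapped for Igkv1-110. The 95% exact binomial (Clopper-Pearson) intervals, which cover counting error only, overlapped between all mice for each of the 3, as with 2.69% to 8.05% in tamoxifen 2 and 5.21% to 9.78% in placebo 1 for Igkv10-96.

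The 15 most used segments together took 49.9% and 46.3% of the assigned cells in the tamoxifen mice and 51.7% and 50.4% in the placebo mice. Below the first 3 came Igkv6-32, Igkv19-93, Igkv6-17, Igkv14-111, Igkv1-135, Igkv12-46, Igkv6-15, Igkv6-23, Igkv17-121, Igkv4-59, Igkv8-30 and Igkv3-4, with mean shares between 3.66% and 2.08%. Igkv3-4 and Igkv8-30 spread widely within the tamoxifen group. Igkv3-4 was assigned to 20 and 0 cells in the tamoxifen mice and to 18 and 3 cells in the placebo mice, so that the difference lay between the tamoxifen mice and not between the groups; 0 of 287 cells in tamoxifen 2 leaves an upper bound of 1.28% on its share. Igkv8-30 ran the other way, with 9 and 13 cells (1.21% and 4.53%) in the tamoxifen mice and 11 and 1 cells (2.04% and 0.763%) in the placebo mice.

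**Figure D1:**
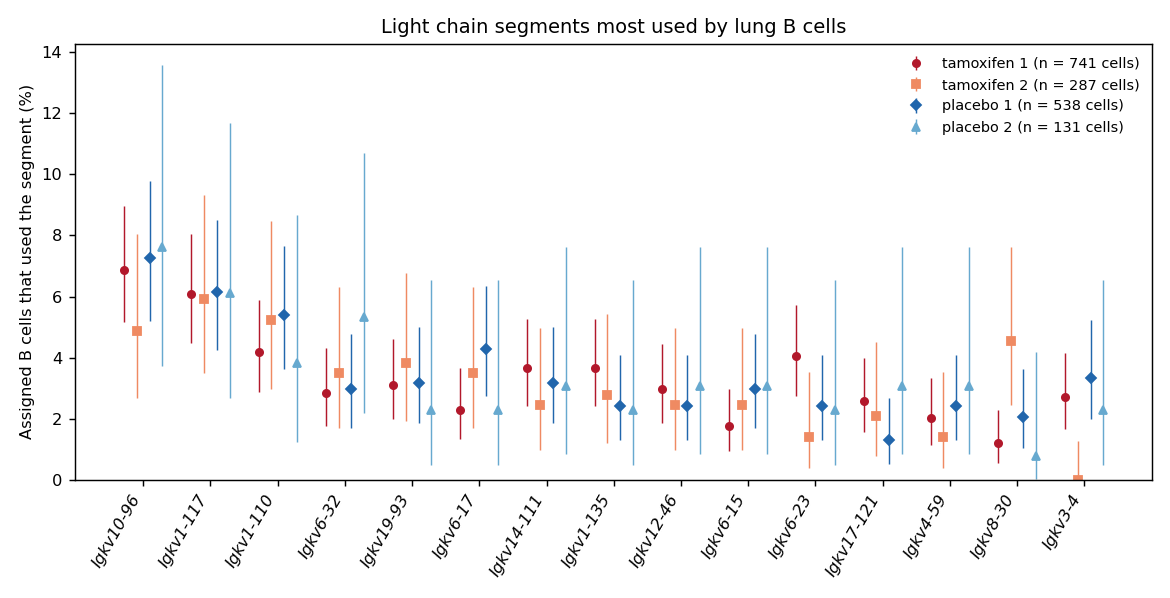
Share of assigned B cells that used each of the 15 most used light chain segments (y axis, percent), for each mouse as 1 point, with 95% exact binomial intervals as bars. Igkv10-96 and Igkv1-117 have the highest mean shares, with 4.88% to 7.63% and 5.92% to 6.13% over the mice. The tamoxifen and placebo points intermix for most segments.

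By family, the numbered groups of related V segments, Igkv1 took 15.4% and 16.4% of assigned cells in the tamoxifen mice and 15.99% and 15.3% in the placebo mice. Igkv6 took 12.8% and 12.5% in the tamoxifen mice and 14.7% and 17.6% in the placebo mice, and both tamoxifen values lay under both placebo values. Igkv4, the family with the most members (33), took 11.7% and 12.9% in the tamoxifen mice and 12.5% and 12.2% in the placebo mice. The Igkv6 interval of placebo 2 ran from 11.5% to 25.2% and covers the values of all 4 mice. Across the 86 segments assigned in any mouse, the shares of 2 mice correlated with a Pearson r between 0.704 and 0.898, with the highest value between tamoxifen 1 and placebo 1, the mice with the most B cells. Segments are not independent replicates, and these values are a description.

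Of the 86 segments, 45 were assigned to at least 1 cell in every mouse. Another 8 were assigned in tamoxifen mice and in neither placebo mouse, and 4 in placebo mice and in neither tamoxifen mouse. The tamoxifen mice had 1028 assigned cells in all and the placebo mice 669, so the groups differ in the chance of catching a rare segment. In all, 78 and 72 segments were assigned in the tamoxifen mice and 75 and 52 in the placebo mice. For a draw of 131 cells from each mouse, the number in placebo 2, the expected number of segments was 51.3 and 55.1 in the tamoxifen mice and 51.2 and 52 in the placebo mice.

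No single segment took over the B cells of a mouse. The chance that 2 assigned B cells of a mouse used the same segment was 2.46% and 2.15% in the tamoxifen mice and 2.56% and 2.20% in the placebo mice. The means were 2.31% ± 0.215 with tamoxifen and 2.38% ± 0.255 with placebo (SD, n = 2 each). The mice interleaved, and the difference of -0.0705 percentage points had a two-sided exact permutation p of 0.667. This was 1 of 3 such tests on whole-repertoire values. The other 2 gave the same p, and Benjamini-Hochberg adjustment over the 3 leaves it at 0.667.

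Lambda chains were rare among the assigned cells. They were assigned to 12 of 741 and 4 of 287 cells in the tamoxifen mice and to 3 of 538 and 2 of 131 cells in the placebo mice. The shares were 1.62% and 1.39% in the tamoxifen mice and 0.558% and 1.53% in the placebo mice, with means of 1.51% ± 0.16 with tamoxifen and 1.04% ± 0.685 with placebo (SD, n = 2 each; exact permutation p = 0.667). Placebo 2 lay between the tamoxifen mice. Most lambda cells used Iglv2, with 9 and 3 cells in the tamoxifen mice and 1 and 2 in the placebo mice. The assignment is by single segment, so cells with UMIs split between lambda segments were missed. Such were a cell of tamoxifen 1 with 182 UMIs of Iglv1 and 161 of Iglv2, and a cell of tamoxifen 2 with 76 of Iglv3 and 34 of Iglv1.

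The other lambda segments were detected far more widely than they were used. Iglv3 (chr16:19241207-19241690) had a UMI in more B cells than any other of the 163 segments, 121 and 26 cells in the tamoxifen mice and 74 and 20 in the placebo mice. These were 13.1% and 7.45% of B cells in the tamoxifen mice and 10.5% and 11.4% in the placebo mice. In 84.2% of the 241 cells it had a single UMI, and 196 of them were assigned to another segment. Only 5 of the 241 (2.07%) were assigned to Iglv3 itself, whereas the median over the 52 segments with at least 20 positive cells was 59.2%. Of the 52, 3 lay under 10%: Iglv3, Iglv1 and the kappa segment Igkv5-45, at 7.14%. Outside the B cells Iglv3 was seen in 3 T cells or neutrophils of tamoxifen 1 and in none of those of the other 3 mice.

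Iglv1 followed the same course, with a UMI in 29 and 14 cells in the tamoxifen mice and 32 and 6 in the placebo mice but only 1 assigned cell. Where Iglv1 reached 3 UMIs it nearly always had company: 24 of 25 such cells (96%) had at least 3 UMIs of another segment as well. Its partner among the 2 leading segments was its near twin Iglv2 in 4 of 20 cells and a kappa segment in 15. The lambda constant genes were likewise detected in 90.2% of kappa-assigned cells, against 95.2% of lambda-assigned cells. Igkc, the kappa constant gene, separated the classes better, with a UMI in 90.5% of 1676 kappa cells and in 28.6% of 21 lambda cells.

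**Figure D2:**
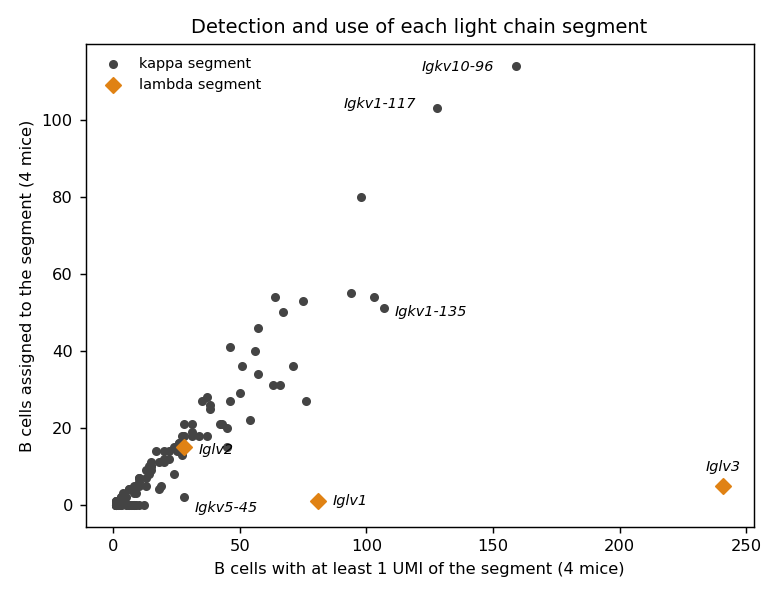
For each light chain segment, the number of B cells of the 4 mice with at least 1 UMI of it (x axis) against the number assigned to it (y axis); diamonds are lambda segments. Iglv3, with 241 positive cells and 5 assigned, and Iglv1, with 81 and 1, lie far under the widely detected kappa segments. The kappa segment Igkv5-45, with 28 and 2, is also low.

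More than 1 segment in a cell was common also among kappa segments. Of the B cells with at least 3 UMIs of some segment, 27.1% and 25% in the tamoxifen mice and 24.0% and 23.4% in the placebo mice had at least 3 UMIs of a second. The 4 mice lay close together. Of the 490 such cells, the 2 leading segments were over 90% identical in only 18 (3.67%), and the second segment had a median of 35.3% of the UMIs of the first. The median cell with a second segment held 3676 and 4785 UMIs in the tamoxifen mice and 2519 and 4410 in the placebo mice. The median cell with 1 segment held 3373.5 and 3670 UMIs in the tamoxifen mice and 2549 and 4190.5 in the placebo mice, so cells with a second segment were the deeper ones in 3 of the 4 mice. Igkv1-135 was the kappa segment most often involved, with another segment in 62 of its 101 cells (61.4%), and the median over 44 segments with at least 20 cells was 38.5%. The part of depth in these second segments was not tested.

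Light chain mRNA was concentrated in a handful of cells. Light chain V UMIs made up 1.91% and 1.43% of all B cell UMIs in the tamoxifen mice and 1.84% and 0.655% in the placebo mice, with means of 1.67% ± 0.338 with tamoxifen and 1.25% ± 0.835 with placebo (SD, n = 2 each; exact permutation p = 0.667). The 5 cells with the most such UMIs carried 57.7% and 48.1% of the light chain V UMIs of the tamoxifen mice and 57.1% and 14.5% of those of the placebo mice. Antibody-secreting cells, taken here as B cells with at least 5 UMIs of Jchain, the chain that joins secreted IgM and IgA units, numbered 7 and 5 in the tamoxifen mice and 7 and 0 in the placebo mice. Without them, the share of light chain V UMIs was 0.783% and 0.787% in the tamoxifen mice and 0.821% and 0.655% in the placebo mice, and the difference between the means went to 0.0466 percentage points with these cells left out, against 0.421 with them. The median B cell differed little, with 26 and 28 light chain V UMIs in the tamoxifen mice and 21 and 28 in the placebo mice.

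**Figure D3:**
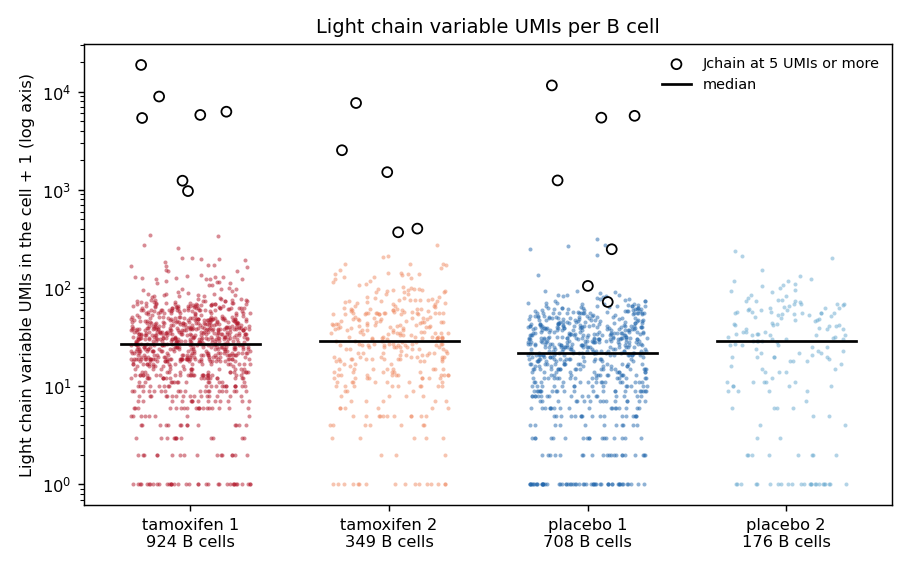
Light chain V UMIs plus 1 in each B cell (log y axis) by mouse; black lines are medians and open circles are cells with at least 5 Jchain UMIs. The medians lie between 21 and 28 UMIs, while single secreting cells reach 18636 UMIs in tamoxifen 1 and placebo 2 has none.

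The highest cell of 3 of the mice put nearly all of its light chain V UMIs into 1 segment, while 197 of the 236 in the highest cell of placebo 2 were of Igkv6-15. In tamoxifen 1 a cell with 18309 UMIs of Igkv6-25, of 18636 light chain V UMIs, held 97.8% of that mouse's Igkv6-25 UMIs, together with heavy segment Ighv1-64 and 749 UMIs of Ighg2b, the IgG2b constant gene. In tamoxifen 2 a cell with 7625 UMIs of Igkv15-103, of 7634, held 95.8% of the mouse's Igkv15-103 UMIs. In placebo 1 a cell with 11504 UMIs of Igkv3-12, of 11538, held 97.6% of the mouse's Igkv3-12 UMIs. Other high cells were mixed, such as a cell of tamoxifen 2 with 2082 of its 2524 light chain V UMIs from Igkv6-32. A sum over the B cells of a mouse thus reports a few secreting cells for these segments, not how many cells used them.

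Some of the highest cells of a mouse shared both chains. In tamoxifen 1, 2 cells had Igkv6-23 at 6224 and 5771 UMIs, and in both Ighv2-6 was the leading heavy segment and Ighm, the IgM constant gene, the leading isotype. Another 2 cells of that mouse had Igkv19-93 at 1165 and 917 UMIs, with Ighv9-3 and Igha, the IgA constant gene, in both. In placebo 1, 2 cells had Igkv6-17 at 5631 and 5398 UMIs but differed in the heavy chain, with Ighv1-74 and Igha in the first and Ighv1-66 and Ighm in the second. The kappa and lambda J segments had 0 UMIs in every mouse, so junctions, which would tell sister cells from chance, could not be read here.

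The comparison of the groups asked whether any segment differed between lungs of tamoxifen and placebo mice. UMIs were summed over the B cells of each mouse, scaled by the TMM method (in CPM below), and fitted across all genes with edgeR's quasi-likelihood test, and 83 of the 163 segments passed its count filter while 80 did not. A segment that passed only through the mice in which it was high had to differ, so counts over the 83 are a description. At a Benjamini-Hochberg adjusted p of 0.05 edgeR called 0 of the 83, and the background was 0% of 10021 genes tested. At an unadjusted p under 0.05 there were 19 of the 83 (22.9%), 15 higher with tamoxifen and 4 lower, against 5.78% of all genes. With the antibody-secreting cells left out, 12 of 83 (14.5%) were under that value, against 6.13% of all genes. Of the 19, 11 were still under it. DESeq2 called 2 of the 83, with a background of 0.216% of the genes it tested, and the edgeR fit with the mouse number as a block called 2, with a background of 0.0499%. In both, 1 of the 2 was Igkv12-98, which was singled out for this very difference, so these counts are a description and no support. Without the count filter 41 of 115 were called, against 2.82% of all genes. That fit also took in segments with UMIs in only 1 cell, such as Igkv3-3 in tamoxifen 1 and Igkv3-9 in placebo 1. Its count is a description too.

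The median log2 fold change of the 83 segments, tamoxifen over placebo, was 0.16, with 47 above 0 and 36 below, and that of all genes was -0.01. Segments spread wider than other genes, with a median absolute log2 fold change of 0.62, against 0.20 over all genes. Both tamoxifen mice lay above both placebo mice for 21 of the 83 (25.3%), against 18.1% of all genes, and below both for 7 (8.43%), against 18.7% of all genes. A segment sum can rest on few cells, so this spread is not comparable with that of a gene that all B cells express.

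The segments with the largest positive fold changes among those whose groups did not overlap were Igkv12-98, Igkv15-103, Igkv4-70, Igkv1-133 and Igkv4-74. Igkv15-103 had 5691 and 7961 UMIs in the tamoxifen mice and 523 and 42 in the placebo mice, a log2 fold change of 4.51 ± 0.95 (SE; edgeR adjusted p = 0.594). Without the secreting cells its log2 fold change was 0.13, and its assigned cells numbered 8 and 8 in the tamoxifen mice and 10 and 1 in the placebo mice. Cells and UMIs thus gave different pictures of this segment.

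Igkv4-70 had 33 and 55 UMIs in 4 and 5 cells of the tamoxifen mice and 3 and 0 UMIs in 1 and 0 cells of the placebo mice. Its log2 fold change was 4.36 ± 1.13 (SE; edgeR adjusted p = 0.728), and 4.39 without the secreting cells. Igkv4-74 had 101 and 27 UMIs in 10 and 2 cells of the tamoxifen mice and 12 and 0 UMIs in 3 and 0 cells of the placebo mice. For both, placebo 2 was at 0, so all UMIs on the placebo side came from placebo 1. Igkv1-133, which is 96.5% identical to Igkv1-135, had 25 and 87 UMIs in 1 and 3 cells of the tamoxifen mice and 14 and 0 UMIs in 2 and 0 cells of the placebo mice.

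The largest negative fold changes among the segments without overlap belonged to Igkv4-92, Igkv6-20, Igkv4-59, Igkv4-57 and Igkv6-15. Igkv6-20 had 110 and 68 UMIs (27.2 and 40.0 CPM) in the tamoxifen mice and 161 and 103 UMIs (68.0 and 104 CPM) in the placebo mice. The log2 fold change of Igkv6-20 was -1.36 ± 0.30 (SE; edgeR adjusted p = 0.617). It was assigned to 3 and 2 cells in the tamoxifen mice and 6 and 2 in the placebo mice. Igkv6-15 was used by more cells, with 13 and 7 assigned cells (1.75% and 2.44%) in the tamoxifen mice and 16 and 4 (2.97% and 3.05%) in the placebo mice, at a log2 fold change of -0.58 ± 0.28 (SE; adjusted p = 0.824). Igkv4-59 was assigned to 15 and 4 cells in the tamoxifen mice and 13 and 4 in the placebo mice, and Igkv4-57 to 5 and 2 cells in the tamoxifen mice and 5 and 2 in the placebo mice. Igkv4-92 rested on 2 and 0 positive cells with tamoxifen and 6 and 1 with placebo, none of them assigned.

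The most used segments showed how single cells set a sum. Igkv10-96 had a log2 fold change of 1.27 ± 0.56 (SE; edgeR adjusted p = 0.824) over all B cells and -0.27 without the secreting cells, as 1 cell held 65.6% of its 2274 UMIs in tamoxifen 2. Igkv6-17 stood at -3.63 ± 1.30 (SE; adjusted p = 0.824) with 11665 UMIs in placebo 1, and at -0.18 without the secreting cells. Igkv6-23 stood at 3.47 ± 1.40 (SE; adjusted p = 0.824) with 13036 UMIs in tamoxifen 1, and at 0.48 without them. Igkv19-93 and Igkv1-135 had both tamoxifen mice above both placebo mice in CPM, at 1.88 ± 0.51 and 0.56 ± 0.14 (SE; adjusted p = 0.762 and 0.701), and at 0.95 and 0.59 without the secreting cells. Igkv1-117 stood at -0.15 ± 0.37 in the same fit.

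**Figure D4:**
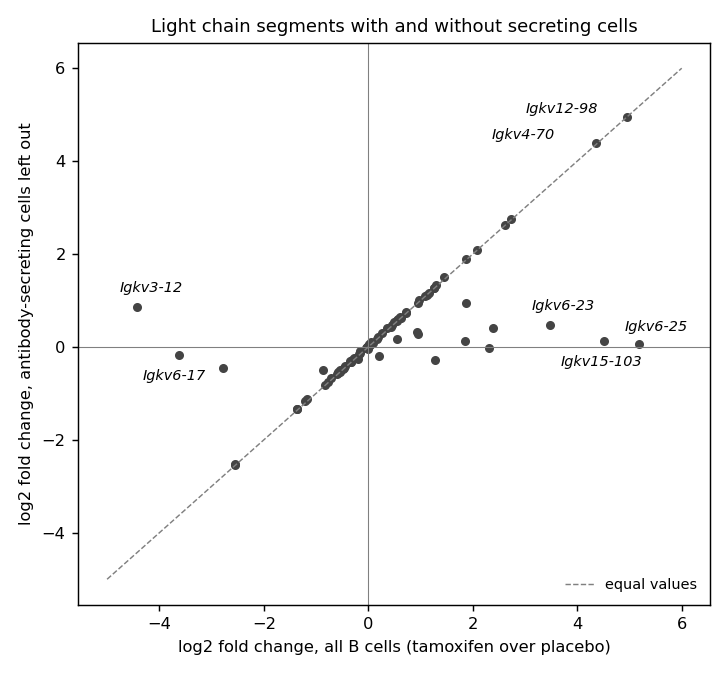
Log2 fold change (tamoxifen over placebo) of each of the 83 tested segments over all B cells (x axis) against that without antibody-secreting cells (y axis); the dashed line marks equal values. Segments with a dominant secreting cell, such as Igkv15-103 at 4.51 against 0.13, drop to near 0 on the y axis, while Igkv12-98 and Igkv4-70 stay on the line.

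Igkv12-44, named here after its values were seen, was the other segment that DESeq2 called, at a log2 fold change of 1.25 (DESeq2 adjusted p = 0.000205; edgeR adjusted p = 0.461). It had 1196 and 519 UMIs in the tamoxifen mice and 300 and 125 in the placebo mice. Its positive cells numbered 27 and 15 in the tamoxifen mice and 18 and 6 in the placebo mice. As shares of B cells these were 2.92% and 4.3% in the tamoxifen mice and 2.54% and 3.41% in the placebo mice. In cells the groups thus overlapped, with placebo 2 above tamoxifen 1. Its assigned cells were 15 of 741 and 7 of 287 in the tamoxifen mice and 6 of 538 and 3 of 131 in the placebo mice. Its closest relative is Igkv12-41, at 95.6% identity, whose log2 fold change was -0.31 ± 0.26 (SE). It is 94.6% identical to Igkv12-46, whose log2 fold change was -0.05 ± 0.19 (SE).

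Igkv12-98 was described because earlier work on these data found it in tamoxifen mice only, so its values carry no test here. In B cells by the present rule it had 336 and 72 UMIs in the tamoxifen mice and 7 and 0 UMIs in the placebo mice. It was therefore not absent from placebo mice: 1 B cell of placebo 1 held 7 UMIs of it and no other light chain V UMI. Positive cells numbered 11 of 924 and 1 of 349 in the tamoxifen mice and 1 of 708 and 0 of 176 in the placebo mice. As shares these were 1.19% and 0.287% in the tamoxifen mice and 0.141% and 0% in the placebo mice.

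The intervals of the mice overlapped. The 95% exact binomial interval ran from 0.596% to 2.12% in tamoxifen 1 and from 0.00725% to 1.59% in tamoxifen 2, and from 0.00358% to 0.784% in placebo 1. In placebo 2, 0 of 176 cells allows a share of up to 1.7% (3 counts), above the share seen in tamoxifen 1. Only 1 of the 349 B cells of tamoxifen 2 used the segment, so that tamoxifen 2 lay nearer to placebo 1 than to tamoxifen 1 in cells. The fitted log2 fold change on UMIs was 4.94 ± 0.67 (SE), and it was 10.17 without placebo 1, where the placebo side is a single mouse at 0, so the value depends on the prior count.

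**Figure D5:**
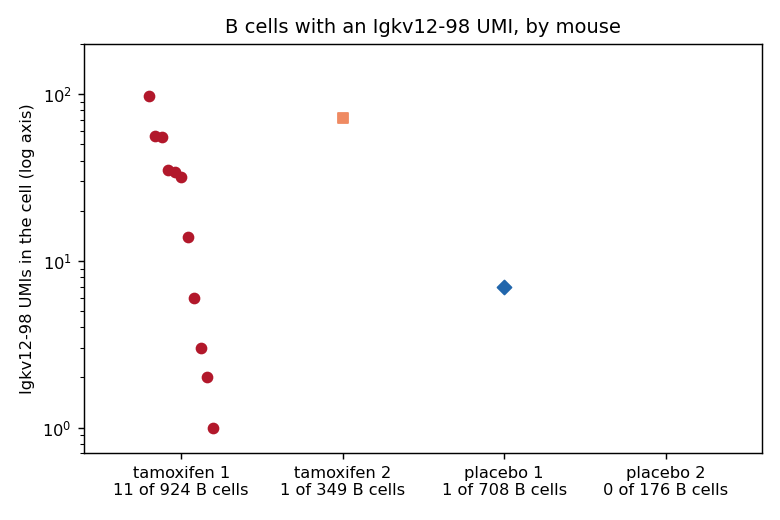
UMIs of Igkv12-98 in each B cell that had any (log y axis), by mouse. Tamoxifen 1 has 11 such cells with 1 to 98 UMIs, tamoxifen 2 has 1 with 72, placebo 1 has 1 with 7 and placebo 2 has none of 176.

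The positive cells of tamoxifen 1 held 98, 56, 55, 35, 34, 32, 14, 6, 3, 2 and 1 UMIs. In 5 of them, and in the single cell of each of tamoxifen 2 and placebo 1, Igkv12-98 was the assigned segment. In 1 cell of tamoxifen 1 its 2 UMIs were the only ones of a light chain V segment, too few for assignment. In the others it was the lesser segment, as in a cell with 6 UMIs of it and 71 of Iglv2, or shared the cell with a second one at a like level, as with 34 UMIs beside 29 of Igkv6-17. The 7 assigned cells had 7 different leading heavy segments, which in 5 of them reached the level of a heavy chain call: Ighv1-67, Ighv3-2, Ighv5-6, Ighv1-26 and Ighv2-6 in tamoxifen 1, Ighv9-3 in tamoxifen 2 and Ighv1-69 in placebo 1. Ighv1-26 rested on 2 UMIs and Ighv1-69 on 1. None of the 13 positive cells had a UMI of Jchain, Igha or any Ighg gene. No positive cell was a secreting cell.

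Igkv12-98 was not seen in other cells. It had 0 UMIs in the 1093 and 760 T cells and the 2581 and 3456 neutrophils of the tamoxifen mice, and 0 in the 1127 and 456 T cells and the 2491 and 4096 neutrophils of the placebo mice. The widest of the limits that these counts of 0 allow is 0.658%, in the T cells of placebo 2. Over all kept cells the UMIs were the same 336 and 72 in the tamoxifen mice and 7 and 0 in the placebo mice as over B cells. Its relative Igkv12-44, whose exon is printed above, had UMIs in every mouse.

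Light chains met many heavy chains. By the same rule for heavy V segments, both chains could be called in 383 and 156 cells of the tamoxifen mice and 232 and 79 of the placebo mice, and these 850 cells held 678 different pairs. Igkv10-96, in 59 such cells, was found with 36 heavy segments, and its most frequent partner Ighv1-66 made up 10.2%. Over 56 light segments other than Igkv14-126 with at least 5 such cells, the most frequent partner had a median of 16%. Only 3 pairs occurred in all 4 mice: Igkv14-126 with Ighv11-2, Igkv1-117 with Ighv1-66 and Igkv10-96 with Ighv1-66.

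Igkv14-126 with Ighv11-2 stood apart from the other pairs. This is a known pairing of mouse B-1a cells, innate-like B cells whose antibodies bind phosphatidylcholine, and it recurs between individuals. Among cells with both chains, it was present in 3 of 383 and 2 of 156 in the tamoxifen mice. In the placebo mice it was present in 2 of 232 and 3 of 79. Ighv11-2 was the heavy segment in 10 of the 13 Igkv14-126 cells with both chains (76.9%), and the next highest share among light segments with at least 5 such cells was 42.9%, 3 of 7 cells of Igkv13-84 with Ighv2-6. Each group thus had 5 of these cells, out of unequal numbers of cells with both chains. The pair was singled out after it was seen, and is a description.

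The 10 cells differed from other B cells in some genes that took no part in choosing them. Of the marginal zone and B-1 genes, Zbtb32 was detected in 7 and Bhlhe41 in 6 of the 10, against 7.87% and 5.24% of the 839 other cells with both chains; Bhlhe41 is a transcription factor needed by mouse B-1a cells. Plac8 was detected in 10 of the 10, against 44.5%. The rest of that list was mixed. Cd5, a surface marker of B-1a cells, was detected in 1 of the 10, against 1.19% of the others. Cd9 was detected in 2 of the 10, against 10.4%, but stood at 28.6 CPM, against 72.2 CPM. Cr2, which follicular B cells also express, was detected in 1 of the 10, against 39.7%. Zbtb20 was detected in 4 of the 10, against 21.6%, and stood at 66.8 CPM, against 65.7 CPM. Fcer2a, the CD23 gene of follicular B cells, was detected in 0 of the 10, against 54.5% of the others, and Ighd in 2, against 63.3%. The 10 cells were large, with a median of 10200 UMIs, against 3410 in the others. The part of depth in these shares was not tested. In CPM, Zbtb32 stood at 143 against 31.9, Bhlhe41 at 76.3 against 14.5 and Plac8 at 1270 against 354. Cr2 stood at 19.1 against 166, Fcer2a at 0 against 272 and Ighd at 19.1 against 276. The other classical phosphatidylcholine pair, Igkv4-91 with Ighv12-3, was seen in 1 cell, in placebo 2.

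The genes that complete the antibody were tested in the same fit. Of the 4 light chain constant genes 0 passed in edgeR, with 3 log2 fold changes above 0. Igkc averaged 1447 ± 85.6 CPM with tamoxifen and 1197 ± 480 CPM with placebo (SD, n = 2 each), a log2 fold change of 0.27 ± 0.29. Of 9 heavy chain constant and joining genes 6 were tested and 0 passed. Ighm had 1151 ± 26.0 CPM with tamoxifen and 969 ± 379 CPM with placebo, whereas Ighg2b had 757 and 2 UMIs in the tamoxifen mice and 7 and 13 in the placebo mice, nearly all of it in the single Igkv6-25 cell. Ighg1, which did not pass the filter, had 7 and 7 UMIs in the tamoxifen mice and 841 and 1 in the placebo mice. Igha had 547 and 451 UMIs in the tamoxifen mice and 801 and 0 in the placebo mice, and Jchain 6025 and 1435 in the tamoxifen mice and 4029 and 0 in the placebo mice, so placebo 2 had neither.

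The recombinase genes and Dntt had few UMIs or none. Of 6 recombination genes 2 passed the filter and 0 the test. Those 2 were Xrcc4, with 82 and 43 UMIs in the tamoxifen mice and 44 and 27 in the placebo mice, and Dclre1c. Dclre1c had 83 and 28 UMIs in the tamoxifen mice and 57 and 37 in the placebo mice. Rag1, a subunit of the recombinase that cuts at V and J segments, had 3 and 6 UMIs in the tamoxifen mice and 0 and 1 in the placebo mice. Rag2 and Dntt, which adds untemplated bases at junctions, had 0 in all 4. The surrogate light chain stands in for the light chain in precursor B cells. Of the 4 genes on the list read for it, Igll1 and Vpreb2 had 0 UMIs. Vpreb1 had 3 and 1 in the tamoxifen mice and 1 and 1 in the placebo mice. Vpreb3 was the only one tested, at 136 ± 23.8 CPM with tamoxifen and 118 ± 29.8 CPM with placebo.

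Of 14 B cell receptor signalling genes 14 were tested and 0 passed, with 10 log2 fold changes above 0 and a median of 0.06. Cd79a averaged 3513 ± 117 CPM with tamoxifen and 2859 ± 290 CPM with placebo (SD, n = 2 each), a log2 fold change of 0.30 ± 0.15 (SE; edgeR adjusted p = 0.824). Syk, the kinase that docks on the phosphorylated receptor, averaged 357 ± 29.2 CPM with tamoxifen and 366 ± 1.89 CPM with placebo. Plcg2, the phospholipase downstream of it, averaged 107 ± 0.249 CPM with tamoxifen and 87.3 ± 6.12 CPM with placebo, at 0.29 ± 0.15 on the log2 scale (adjusted p = 0.824).

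Light chains also appeared in a few cells outside the B cell rule. Assigned cells there numbered 17 and 3 in the tamoxifen mice and 15 and 0 in the placebo mice, 12 and 3 of them with Cd3e in the tamoxifen mice and 13 in placebo 1. Of these assigned cells, 1 in tamoxifen 1 and 1 in placebo 1 had Jchain. The cell of placebo 1 held 5526 UMIs of Igkv3-7 and neither Cd79a nor Ms4a1, so the rule leaves it out. It was the only cell of the 4 libraries outside the rule with more than 1000 light chain V UMIs.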

How the data were processed

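Per the labels' protocols, perfused lungs were digested enzymatically and cells processed with the 10x Genomics 5' assay, and read on a NovaSeq instrument. The authors deposited raw UMI counts per gene and barcode, with 32285 genes. Per the file headers the matrices were written by Cell Ranger 5.0.0, whereas version 8.0.1 and the mm10 build are given in the submitters' processing notes, so the version behind the counts is uncertain. Segments were annotated from GENCODE M21.

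Barcodes were dropped if they had under 250 genes, over 15% mitochondrial UMIs or a Scrublet score (scanpy 1.11.5) over 0.25. Segments were assigned as stated in the text. T cells had a UMI of Cd3e and none of Cd79a or Ms4a1. Neutrophils had a UMI of S100a8 and of Csf3r and none of Cd3e, Cd79a or Ms4a1. UMIs summed per mouse were tested with edgeR 4.0.16 (R 4.3.3; TMM, filterByExpr, quasi-likelihood F test, Benjamini-Hochberg over 10021 genes, threshold 0.05; the SE was derived from F). Alternatives included DESeq2 1.42.0, and the fit was tested on simulated data. Exact permutation tests and Clopper-Pearson intervals (95%) used scipy 1.17.1, and floors are 3 counts.

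Named segments were Igkv12-98, the 15 with the highest mean share, any called by edgeR, the 5 largest changes in each direction among those whose groups did not overlap, each Iglv gene and the leading segment of each mouse. The members, lists and rules were chosen with earlier results of these data known. The mouse numbers are not stated to pair mice, and the deviations of same-numbered mice correlated at 0.0766.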

Additional observations from a re-analysis of the deposited data

Results flagged for a closer look

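Barcodes over the doublet score were left out of the comparisons of the report and entered only the alternative with doublets kept. Igkv12-98 appeared in them in both tamoxifen mice and in neither placebo mouse. It had 34 UMIs in 1 of 45 such B cells in tamoxifen 1 and 30 UMIs in 1 of 17 in tamoxifen 2, and 0 UMIs in 37 such B cells in placebo 1 and 0 in 7 in placebo 2. The difference was not tested, and the few such cells in placebo 2 limit what a count of 0 there can show.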

How the results depend on the processing

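With 2 mice in each group the results on single segments are held by few mice and few cells. The edgeR count of called segments stayed at 0 under RLE size factors, with doublets kept, with the stricter B cell choice, without the antibody-secreting cells, with cells in place of UMIs, with immunoglobulin genes left out of the library size and after thinning to 1000 UMIs. It was 2 with DESeq2 (Igkv12-44, and Igkv12-98, which was singled out for its difference and is no support here), 41 with no count filter (2.82% of all genes) and between 0 and 6 when a mouse was left out, where the lone mouse of a group is assumed to vary like the others. The 6 came without placebo 1, 3 without placebo 2, 1 without tamoxifen 1 and 0 without tamoxifen 2; the cause was not tested. No share of all genes called is given for the fits without a mouse, so the counts from these fits have no background. Whether they exceed what all genes show there was not tested, and they are a description. With the replicate number as a block 2 segments passed the threshold, Igkv19-93 at 1.92 on the log2 scale and the preselected Igkv12-98. With only 2 numbers the data do not show that they pair mice.

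Of the 26 named segments, log2 fold changes turned in sign as follows; the cause was not tested. With cells in place of UMIs they were -0.26 for Igkv10-96, -0.37 for Igkv1-110, -0.39 for Igkv6-32, -0.12 for Igkv14-111, -0.17 for Iglv3 and -0.54 for Iglv1. Thinning gave -0.12 for Iglv3 and -0.97 for Iglv1, leaving out the secreting cells gave -0.27 for Igkv10-96, and no filter gave 0.001 for Igkv12-46. Over the fits without a mouse the range ran from -0.60 to 0.56 for Igkv1-117, from -4.55 to 0.024 for Igkv6-17, from -0.27 to 0.18 for Igkv12-46, from -0.36 to 4.45 for Igkv6-23, from -0.066 to 0.98 for Igkv17-121, from -0.10 to 3.05 for Igkv8-30, from -3.11 to 0.43 for Igkv3-4, from -0.087 to 0.62 for Iglv3 and from -0.52 to 1.83 for Iglv1. Igkv12-98 kept its sign in each fit that could be made, between 4.38 and 10.17 without a mouse; with cells in place of UMIs it did not pass the filter. Without a mouse, the difference of the lambda share ran from -0.0201 to 0.949 percentage points, that of the same-segment chance from -0.251 to 0.11, and that of the light chain share of UMIs from -0.169 to 1.01, the lowest without placebo 2.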
